A study of Mus musculus with 6 samples.

Results

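The ephrin, Slit-Robo and RGM guidance genes were examined in the ribosome-bound transcriptome of mouse hippocampal astrocytes. They were taken by symbol, by a rule set with earlier results of these data known. No measured values chose the genes, but each was read on its transcript with the most counts over the 6 libraries. The genes comprised the Eph receptors, the ephrins, Slit1 to Slit3, Robo1 to Robo4, Rgma, Rgmb and Neo1. These were 32 of the 22086 genes measured. The mRNAs were recovered by translating ribosome affinity purification (TRAP), in which ribosomes carrying a GFP-tagged L10a protein are pulled down from tissue. Whole hippocampi of 6-week-old mice were used, and 3 libraries of each genotype were sequenced. All mice were homozygous for the floxed Gja1 allele (Cx43 fl/fl), which encodes the gap junction protein connexin 43, and carried the Aldh1l1-RPL10aGFP transgene, a BAC transgene driven by the astrocyte promoter Aldh1l1 and kept heterozygous. The libraries labelled Cx43KO came from mice that also carried Gfap Cre (a Cre driven by the human GFAP promoter), and those labelled Cx43FL came from littermates without it. This GFAP promoter is also known to be active in neural precursors, which give rise to some neurons. The study describes the libraries as independent but does not state whether those of a genotype came from separate mice, so the p-values measure only the spread between these libraries. The libraries were run 3 to a lane on 2 sequencing lanes. Which libraries shared a lane is not given in the sources used here, so lane and genotype cannot be told apart.

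These proteins are cues and receptors first known from axon guidance. Eph receptors are tyrosine kinases that bind ephrins on neighbouring cells, and signals run both ways: into the cell with the receptor and into the cell with the ephrin. Class A ephrins are held to the membrane by a lipid anchor, and class B ephrins span it and signal through their cytoplasmic tail. Slits are large secreted proteins that repel axons through Robo receptors. RGM proteins are membrane-anchored, bind the receptor neogenin (Neo1) and also act as co-receptors for bone morphogenetic proteins. In the adult hippocampus, ephrin-A3 on astrocytes and EphA4 on dendritic spines are known to act together on spine shape and on glutamate uptake by astrocytes.

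The targeted gene was checked first. Gja1 had 1396, 1382 and 1264 counts in Cx43FL libraries 1 to 3 and 1405, 2449 and 3079 counts in the libraries labelled Cx43KO 1 to 3. Scaled to counts per 1000000 (CPM, on library sizes normalized by TMM), these were 92.0, 91.7 and 82.3 against 87.2, 98.4 and 95.1. The groups overlapped, and the log2 fold change (Cx43KO over Cx43FL) was 0.078 ± 0.28 (SE, edgeR, Benjamini-Hochberg adjusted p = 0.949). Counts over the whole transcript do not show whether its floxed part was read, so the genotype rests on the labels.

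The libraries held from 14787303 to 34733473 counts on the transcripts that represented genes, where the most-counted transcript over the 6 libraries stood for its gene. The library labelled Cx43KO 1 stood apart. It scored 123 on the first principal component, which held 41.0% of the variance, and the other libraries lay between -50.7 and -0.42. Its summed astrocyte markers stood at 13384 CPM, against 25983 to 37192 CPM in the other libraries, and no astrocyte marker of 10 was higher in every library labelled Cx43KO. Its summed neuronal markers stood at 7829 CPM, against 2141 to 2878 CPM in Cx43FL and 3045 and 4503 CPM in the libraries labelled Cx43KO 2 and 3. Of 12 neuronal markers, all tested, 6 were higher at an unadjusted edgeR p below 0.05, where 5.66% of all genes were higher and 2.67% lower. So were 3 of 8 tested microglial and 2 of 6 meningeal fibroblast markers. Oligodendrocytes (8 tested), mural cells (5), oligodendrocyte precursors (6) and choroid plexus and ependyma (6) had 1 higher marker each. Of 6 endothelial markers 0 were higher, and of 10 astrocyte markers 0 were higher and 1 lower. Oligodendrocyte markers summed to 2717 CPM in Cx43KO 1 and 590 to 989 CPM elsewhere, and microglial markers to 81.7 to 125 CPM in Cx43KO against 28.3 to 52.2 CPM in Cx43FL. Endothelial markers were low throughout (8.76 to 24 CPM), as were mural markers (30.2 to 91.9 CPM), of which Kcnj8 was at 0. The oligodendrocyte precursor markers (183 to 345 CPM) overlapped between genotypes, whereas meningeal fibroblast markers stood at 258 to 495 CPM in Cx43KO, above the 110 to 190 CPM of Cx43FL. Igf2 alone made up 82.7% of the meningeal fibroblast sum, and only 1 of its 6 markers was higher in every library labelled Cx43KO. Choroid plexus and ependymal markers, of which Ttr made up 98.4%, summed to 463 to 15150 CPM in Cx43FL, below the 21848 to 32559 CPM found in Cx43KO. The part these cells play in the results on guidance genes was not tested, and in ribosomes pulled down from bulk tissue fewer cells of a type, less RNA per cell and RNA carried over from other cells cannot be told apart.

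In the Cx43FL libraries, which also held markers of other cells, the highest levels per transcript length were those of the RGM ligand Rgma and its receptor Neo1. Levels between genes were compared as CPM per kilobase of the transcript. Rgma stood at 16.1 ± 0.649 CPM per kilobase and Neo1 at 12.8 ± 2.83 (SD, n = 3). They were followed by the receptor Ephb1 at 6.97 ± 3.60, the receptor Epha4 at 4.97 ± 0.714, the ligand Efnb3 at 4.65 ± 0.595 and the receptor Epha5 at 3.19 ± 0.955. Each of these genes overlapped in its libraries with the next in the order, whereas Rgma and Neo1 lay above Epha4 in every Cx43FL library. Epha7, Robo1 and Rgmb came next, at 2.64 ± 1.01, 2.4 ± 0.935 and 2.32 ± 0.957 CPM per kilobase. At the other end, 8 of the 32 genes had too few counts to be tested. They were Epha1, Epha2, Epha8, Epha10, Efna1, Efna4, Robo3 and Robo4. Epha2 had no count in any library, which allows a level of up to 0.0864 to 0.203 CPM by library (the level of 3 counts, counting error only). Robo4, the Robo receptor known from endothelial cells, had 2 counts in Cx43FL 3 and 0 in the others.

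**Figure D1:**
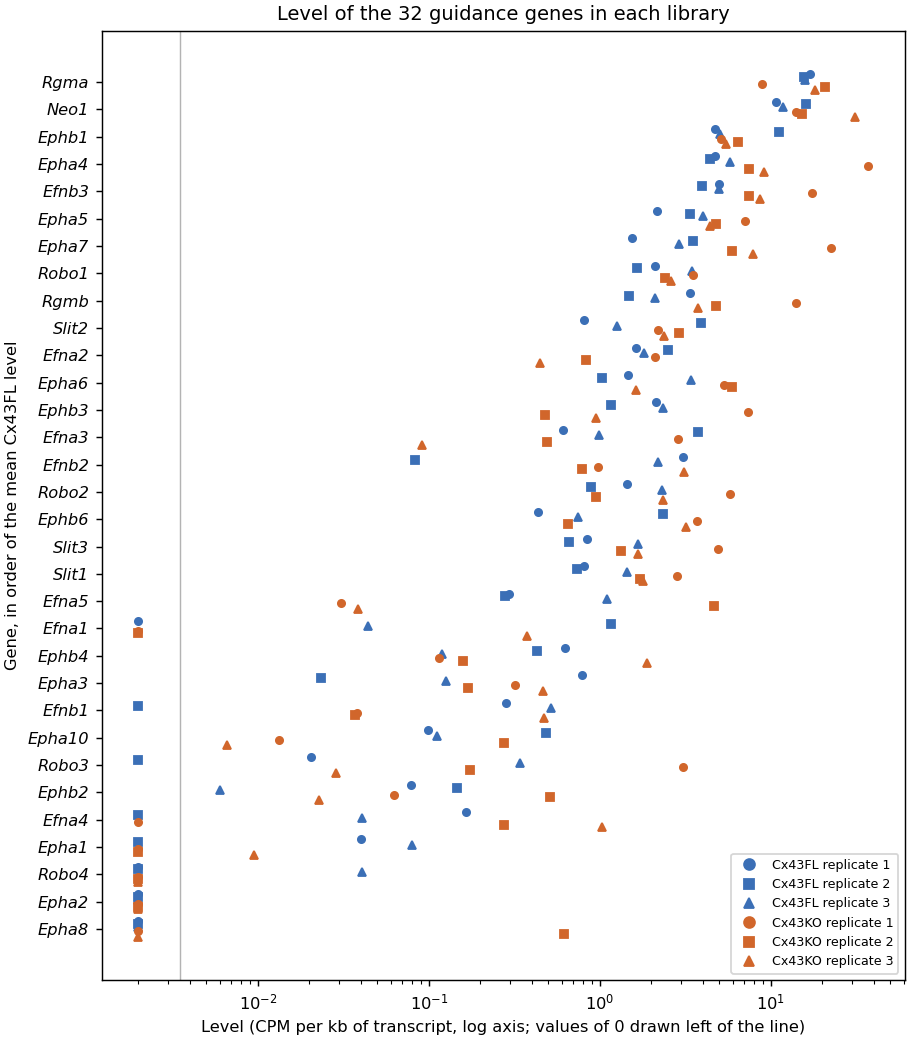
Level of each guidance gene in each library, as CPM per kilobase of transcript on a log axis, with genes in order of their mean Cx43FL level. Color gives the genotype label, the shape of the point gives the replicate, and values of 0 are drawn left of the grey line. Rgma and Neo1 are at the top in Cx43FL, and Epha2 has no point above 0.

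Epha4, Epha7, Efnb3 and Rgmb were the members with the lowest p-values, and all were higher in the libraries labelled Cx43KO. Before their values, the promoter windows of 3 of them are shown, as a description only. These genes were picked by their p-values in these data, and the windows of the other guidance genes were not read. Whether the promoters bear on the values was not tested. Each window runs from 250 bases before to 50 bases after a RefSeq transcription start (GRCm38.p6), is written 5′ to 3′ on the strand of the gene, and has the GC box GGGCGG, on either strand (CCGCCC on the other), in capitals. The windows lie at chr1:77515039-77515338 (minus strand, Epha4), chr4:28812881-28813180 (plus strand, Epha7) and chr17:15826517-15826816 (minus strand, Rgmb). No window was at hand for Efnb3.
Epha4: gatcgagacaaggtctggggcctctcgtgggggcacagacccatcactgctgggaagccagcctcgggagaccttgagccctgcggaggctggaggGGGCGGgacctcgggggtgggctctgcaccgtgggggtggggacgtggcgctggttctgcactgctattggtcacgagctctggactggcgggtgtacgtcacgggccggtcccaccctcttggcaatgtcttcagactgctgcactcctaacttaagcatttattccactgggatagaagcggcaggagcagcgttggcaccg
Epha7: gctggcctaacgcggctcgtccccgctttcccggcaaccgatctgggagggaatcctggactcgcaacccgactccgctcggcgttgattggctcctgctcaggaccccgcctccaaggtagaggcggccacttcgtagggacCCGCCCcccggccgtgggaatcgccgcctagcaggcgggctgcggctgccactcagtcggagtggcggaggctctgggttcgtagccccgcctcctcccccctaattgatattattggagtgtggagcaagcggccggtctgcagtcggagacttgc
Rgmb: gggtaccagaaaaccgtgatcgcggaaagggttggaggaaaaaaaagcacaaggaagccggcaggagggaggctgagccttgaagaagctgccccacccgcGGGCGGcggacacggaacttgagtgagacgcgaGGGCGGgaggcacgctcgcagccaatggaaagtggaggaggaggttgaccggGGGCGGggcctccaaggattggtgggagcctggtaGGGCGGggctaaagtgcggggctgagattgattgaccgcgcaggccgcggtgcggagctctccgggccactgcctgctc
The windows of Epha4 and Epha7 held 1 GC box each and that of Rgmb held 4. Of 32851 promoter windows of the same length, 35.7% held at least 1. CCAAT, read on both strands, was found 1 time in the Epha4 window and 2 times in each of the others, and was present in 37.4% of all windows. Neither TATAAA (13.6% of all windows) nor the E-box CACGTG (7.15%) was found in any of the 3. Their GC content was 64.0%, 67.0% and 65.3% for Epha4, Epha7 and Rgmb, against a median of 52.7% over all windows, and they held 17, 28 and 24 CpG dinucleotides against a median of 7. The share of all windows with a lower GC content was 79.7%, 85.6% and 82.3%, and with fewer CpG dinucleotides 68.6%, 85.8% and 80.0%. Epha7 had 2 windows and Rgmb 3, and the window nearest the start of the counted transcript was shown (0 and 20 bases away). The motif matches are letters in a window and say nothing of binding.

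Epha7 is a receptor for class A ephrins, known for its part in dendrite growth and in setting topographic maps. It was counted on transcript ENSMUST00000029964 (chromosome 4, gene at 28813131 to 28967499, plus strand, 17 exons). Its counts were 157, 356 and 300 in Cx43FL 1 to 3, against 2458, 991 and 1717 in the libraries labelled Cx43KO 1 to 3, which were 10.3, 23.6 and 19.5 CPM against 153, 39.8 and 53.0 CPM. The genotypes did not overlap, and Cx43KO 1 lay far above the other two Cx43KO libraries. The log2 fold change was 2.20 ± 0.55 (SE), a fold of 4.58, with an unadjusted edgeR p of 0.0022 and an adjusted p of 0.490. Its exact permutation p was 0.1, the smallest that 3 libraries against 3 allow. Without Cx43KO 1 the log2 fold change was 1.37 (edgeR, adjusted p = 0.449), with an unadjusted p still below 0.05. Epha7 was the only guidance gene called by DESeq2, the tool of the original study, at an adjusted p of 0.0125 (log2 fold change 2.19), where 0.871% of the 13545 tested genes were called higher and 0.14% lower. A shorter Epha7 transcript of 2880 bases and 10 exons had 5.6, 9.29 and 7.36 CPM in Cx43FL, against 86.8, 7.64 and 24.7 CPM in Cx43KO. Here Cx43KO 2 lay within the Cx43FL range, unlike on the transcript of 17 exons. Reads on shared exons were counted on several transcripts, and the forms are not independent.

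Epha4 is an Eph receptor that binds both ephrin classes, and is known for synapse and astrocyte-neuron contacts in the hippocampus. Its transcript ENSMUST00000027451 (chromosome 1, 77367185 to 77515088, minus strand) had 452, 423 and 562 counts in Cx43FL, against 3782, 1172 and 1883 in Cx43KO. These were 29.8, 28.1 and 36.6 CPM against 235, 47.1 and 58.1 CPM. The groups did not overlap, and Cx43KO 1 alone held 54.0% of the normalized counts. The log2 fold change was 1.85 ± 0.56 (edgeR, unadjusted p = 0.00733, adjusted p = 0.501), a fold of 3.60. Without Cx43KO 1 it was 0.74 (edgeR, adjusted p = 0.596) and no longer passed the unadjusted threshold, and the other Cx43KO libraries still lay above all Cx43FL libraries.

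Rgmb, also called DRAGON, is an RGM protein and a co-receptor for bone morphogenetic proteins. Transcript ENSMUST00000170578 (chromosome 17, gene at 15803188 to 15831039, minus strand) had 291, 128 and 183 counts in Cx43FL, against 1289, 682 and 697 in Cx43KO, or 19.2, 8.49 and 11.9 CPM against 80.0, 27.4 and 21.5 CPM. All libraries labelled Cx43KO lay above Cx43FL, and Cx43KO 3 lay just above Cx43FL 1. The log2 fold change was 1.70 ± 0.59 (edgeR, unadjusted p = 0.0148, adjusted p = 0.540), a fold of 3.25. Without Cx43KO 1 it was 0.89 (edgeR, adjusted p = 0.668) and no longer passed the unadjusted threshold.

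Efnb3 is a class B ephrin, known as a midline cue for the corticospinal tract. It lies on chromosome 11 at 69554092 to 69560205, minus strand. Its counts were 242, 190 and 243 in Cx43FL, against 895, 592 and 893 in Cx43KO, or 15.9, 12.6 and 15.8 CPM against 55.6, 23.8 and 27.6 CPM. The groups did not overlap. The log2 fold change was 1.27 ± 0.48 (edgeR, unadjusted p = 0.0235, adjusted p = 0.554), a fold of 2.41. Without Cx43KO 1 it was 0.79 (edgeR, adjusted p = 0.66) and also missed the unadjusted threshold. The exact permutation p of Epha4, Rgmb and Efnb3 was also 0.1.

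**Figure D2:**
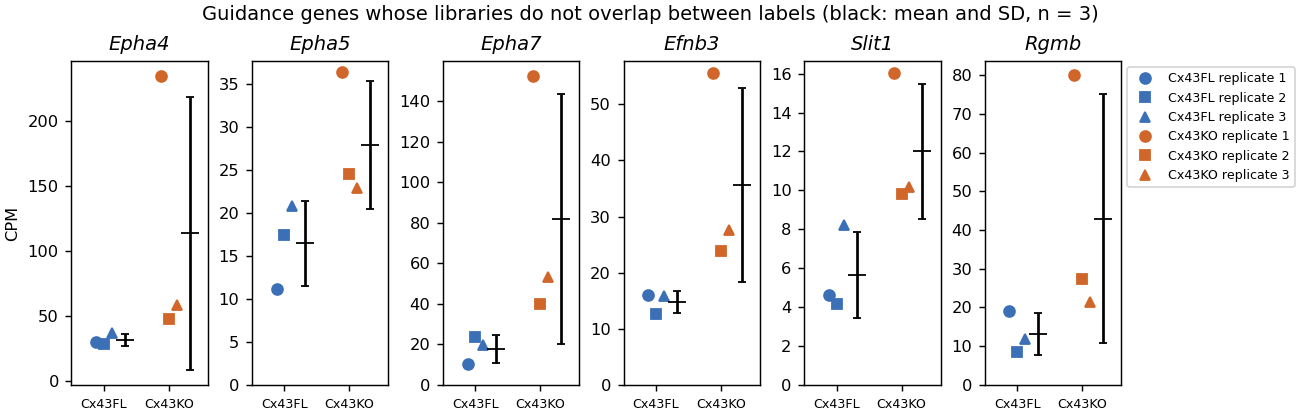
Values of the guidance genes with every library labelled Cx43KO above every Cx43FL library, in CPM, on axes that start at or just below 0. Each point is a library, and the black bars give the mean and SD of each genotype label (n = 3). Cx43KO 1 is the highest point for each of these genes, and the other Cx43KO libraries stay above the Cx43FL points.

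Over the 24 guidance genes tested, edgeR called none at an adjusted p below 0.05, and the lowest adjusted p was 0.49. Among all 13545 genes tested it called 1 higher (0.00738%) and none lower (0.0%), and 767 genes were higher and 362 lower at an unadjusted p below 0.05. At that unadjusted threshold, 4 of the 24 guidance genes were higher (16.7%) and 0 lower, where the shares over all genes were 5.66% and 2.67%. The libraries labelled Cx43KO all lay above the Cx43FL libraries for 6 of them (25.0%) and all below for 0, against 8.08% and 7.45% of all genes. The median log2 fold change of the guidance genes was 0.82, and that of all genes 0.071. Of the 24, 18 were positive (75%) and 6 negative, where 54.4% of all genes were positive. DESeq2 with a normal prior on the fold changes called Epha7 as well (adjusted p = 0.0151, log2 fold change 1.71), where 0.731% of all genes were called higher and 0.103% lower.

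The other 2 genes whose libraries did not overlap were the receptor Epha5 and the ligand Slit1. Epha5, a receptor of class A ephrins, had 169, 263 and 320 counts in Cx43FL, against 587, 610 and 741 in Cx43KO (11.1, 17.4 and 20.8 CPM against 36.4, 24.5 and 22.9 CPM). Its log2 fold change of 0.76 ± 0.48 did not pass the unadjusted threshold (edgeR, adjusted p = 0.646). Slit1, a Slit made largely in the nervous system, had 70, 63 and 126 counts in Cx43FL, against 258, 244 and 330 in Cx43KO (4.61, 4.18 and 8.21 CPM against 16.0, 9.81 and 10.2 CPM), with a log2 fold change of 1.08 ± 0.67 (edgeR, adjusted p = 0.645). For both genes the separation was lost when all transcripts of a gene were added up.

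By family, the 14 Eph receptors gave 10 tested genes, of which 9 had higher mean values in Cx43KO. The median log2 fold change over the 10 was 1.0, and the values ran from -0.30 to 2.20. Only Epha4 and Epha7 had an unadjusted p below 0.05 in this family. Ephb1, the class B receptor with the highest Cx43FL level and the 1 negative value, had 335, 783 and 363 counts in Cx43FL, against 384, 749 and 823 in Cx43KO (22.1, 51.9 and 23.6 CPM against 23.8, 30.1 and 25.4 CPM). Cx43FL 2 stood above all other libraries, and the log2 fold change was -0.30 ± 0.46 (edgeR, adjusted p = 0.861), or 0.20 without Cx43FL 2. The remaining receptors (Epha3, Epha6, Ephb2, Ephb3, Ephb4 and Ephb6) had log2 fold changes from 0.017 to 1.37, with SE from 0.72 to 1.5. Ephb6, whose kinase domain is inactive, had 25, 132 and 43 counts in Cx43FL, against 225, 61 and 390 in Cx43KO, and its libraries overlapped. The sign of 4 of these receptors turned when 1 library was left out: Ephb2 to -0.86 without Cx43KO 2, Ephb4 to -1.51 without Cx43KO 3, Ephb3 to -1.39 without Cx43KO 1, and Epha3 to -0.36 without Cx43KO 3. Ephb4, a receptor known from veins, had 265 counts in Cx43KO 3 and 8 to 41 counts in the other libraries. Ephb3 had 495 counts in Cx43KO 1 and 50 to 150 counts elsewhere.

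Of the 8 ephrins, 6 were tested, with a median log2 fold change of -0.33. Efnb3 and Efna5 were positive and the other 4 negative. Efna5, a class A ligand known for mapping of retinal axons, had 468 counts in Cx43KO 2 and 2 to 68 counts in the other libraries, so that 72.8% of its normalized counts came from 1 library. Its sign hung on that library: the log2 fold change was 1.5 ± 1.6 with it and -3.94 ± 1.71 without it (edgeR, adjusted p = 0.537), where Efna5 was lower at an unadjusted p below 0.05 and lay below Cx43FL in both remaining Cx43KO libraries. Efna3, the ephrin-A3 of astrocytes, had 22, 133 and 36 counts in Cx43FL, against 109, 29 and 7 in Cx43KO (log2 fold change -0.64 ± 1.29), and 14.6% of its exon bases overlapped another gene. Efnb2, a class B ligand known from arteries, had 222, 6 and 162 counts in Cx43FL, against 75, 94 and 480 in Cx43KO, and its libraries overlapped. The signs of Efna3, Efnb1 and Efnb2 also turned when single Cx43FL libraries were left out, and none of these 3 genes passed the unadjusted threshold in all 6 libraries.

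The 3 Slits had positive log2 fold changes in all 6 libraries, of 1.08 (Slit1), 0.33 (Slit2) and 1.32 (Slit3), with SE from 0.63 to 0.75, and none had an unadjusted p below 0.05. Slit2 ranged from 95 to 458 counts in Cx43FL and from 275 to 597 in Cx43KO, and its log2 fold change was -0.065 without Cx43FL 1. Of the Robo receptors, Robo1 and Robo2 were tested, with log2 fold changes of 0.25 ± 0.49 and 0.98 ± 0.68. Robo2 had 803 counts in Cx43KO 1, or 49.9 CPM, against 7.63 to 20.3 CPM in the other libraries. Robo3, a receptor of commissural axons, had 159 counts in Cx43KO 1 and 0 to 17 in the other libraries, on a transcript annotated as retaining an intron.

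In the RGM family, Rgmb had the value given above, and Rgma and Neo1 did not pass the unadjusted threshold in all 6 libraries. Without Cx43KO 1 all members of this family had positive values. Rgma, the repulsive ligand of neogenin (chromosome 7, 73375509 to 73419899), had 918, 846 and 873 counts in Cx43FL, against 516, 1850 and 2100 in Cx43KO, or 60.5, 56.1 and 56.9 CPM against 32, 74.3 and 64.8 CPM. Cx43KO 1 was the lowest library and the other Cx43KO libraries the highest, and the log2 fold change was -0.018 ± 0.38 (edgeR, adjusted p = 0.994), or 0.26 without Cx43KO 1. Of its exon bases, 7.11% overlapped another gene. Neo1 (chromosome 9, 58874687 to 59036441) had 1195, 1784 and 1338 counts in Cx43FL, against 1681, 2780 and 7453 in Cx43KO, or 78.7, 118 and 87.1 CPM against 104, 112 and 230 CPM. Here Cx43KO 3 stood out, and the log2 fold change of 0.65 ± 0.37 (edgeR, adjusted p = 0.627) was 0.84 without Cx43KO 1 and 0.19 without Cx43KO 3. The ratio of the Rgma level to the Rgmb level, per kilobase, was 5.01, 10.5 and 7.58 in Cx43FL, against 0.636, 4.31 and 4.79 in Cx43KO. It was lower in each library labelled Cx43KO than in any Cx43FL library, and by far the lowest in Cx43KO 1. The 4.79 of Cx43KO 3 lay just below the 5.01 of Cx43FL 1. In part the ratio restates the higher Rgmb values, since Rgma itself overlapped between genotypes.

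**Figure D3:**
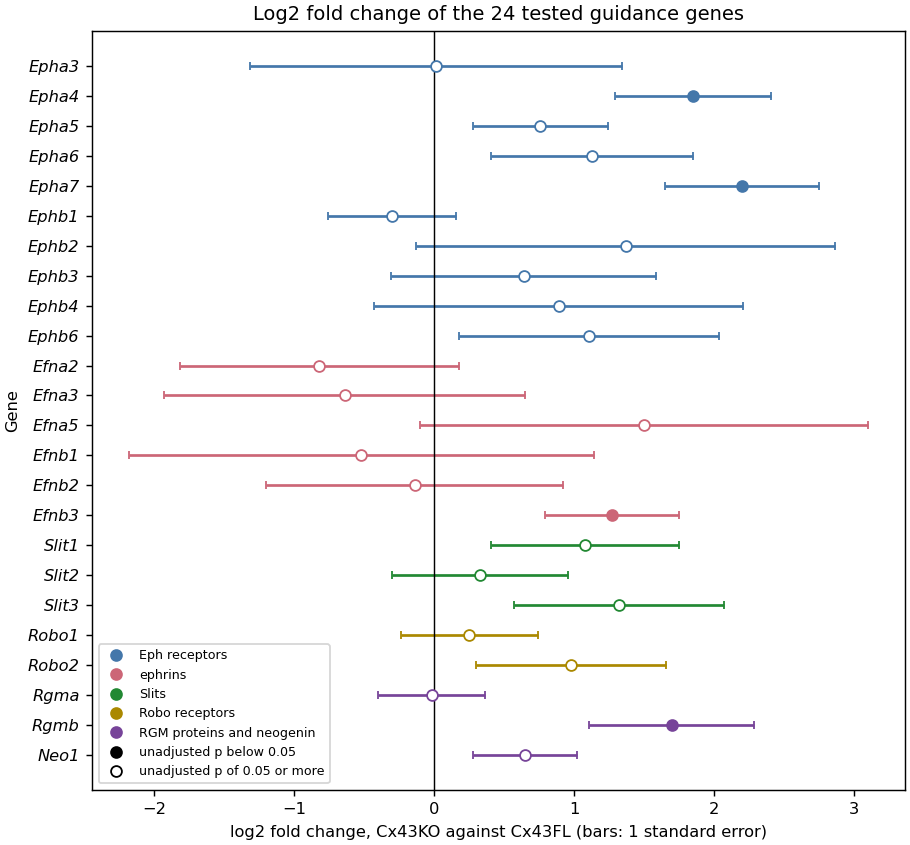
Log2 fold change (Cx43KO over Cx43FL) of each of the 24 guidance genes tested by edgeR, with its standard error as a bar, by family; filled points have an unadjusted p below 0.05. Epha7, Epha4, Rgmb and Efnb3 are the filled points, and the broad bars belong to the low genes such as Efnb1, Efna5 and Ephb2.

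Added up over the family, the Eph receptor level was 18.8, 28.0 and 24.7 CPM per kilobase in Cx43FL, against 88.8, 33.4 and 35.1 in Cx43KO. Epha4 and Epha7 made up 28.3% to 35.1% of it in Cx43FL and 67.3%, 40% and 48.6% in Cx43KO 1 to 3. Ephb1 made up 20.5% to 39.7% in Cx43FL and 5.75%, 19.3% and 15.5% in Cx43KO. These shares restate the higher values of Epha4 and Epha7, since Ephb1 itself overlapped between genotypes. The ephrins summed to 11.1, 11.7 and 11.7 CPM per kilobase in Cx43FL and 23.5, 14.6 and 14.2 in Cx43KO, whereas without Efnb3 they summed to 6.04, 7.75 and 6.7 against 6.0, 7.09 and 5.54, so that Efnb3 carried the difference. The Slits summed to 2.46, 5.31 and 4.38 against 9.95, 5.99 and 5.84. The sums of Rgma, Rgmb and Neo1 were 30.9, 33.2 and 29.8 CPM per kilobase in Cx43FL, against 37.1, 40.7 and 53.0 in Cx43KO. The sums of the Robo receptors overlapped, at 2.53 to 6.13 against 3.54 to 12.4. The neuronal markers were also highest in Cx43KO 1. So were those of oligodendrocytes, microglia, endothelial cells, mural cells, choroid plexus and ependyma, and meningeal fibroblasts. Neuronal markers stood at 2141, 2782 and 2878 CPM in Cx43FL 1 to 3 and at 7829, 3045 and 4503 CPM in Cx43KO 1 to 3. Both these markers and the Eph receptor sum were lowest in Cx43FL 1 and ran in the same order within Cx43KO. Only Cx43FL 2 and 3 stood in the opposite order. The part of any of these cells in the sum was not tested.

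**Figure D4:**
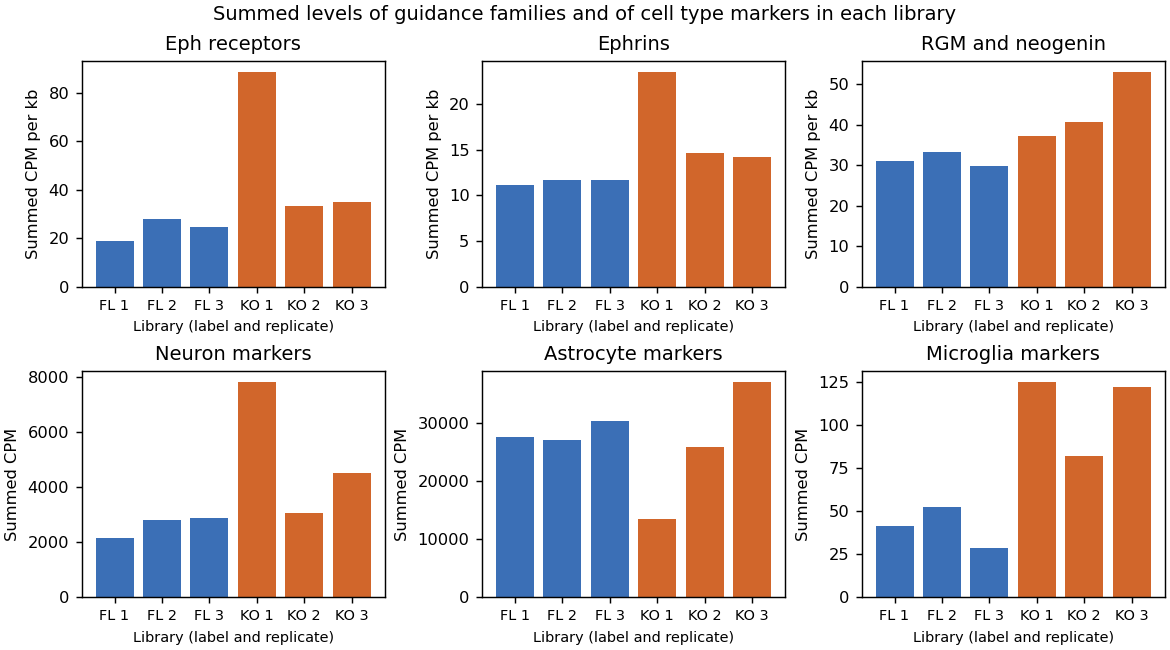
Summed levels of the Eph receptors, the ephrins and the RGM proteins with neogenin (top, CPM per kilobase) and of the neuron, astrocyte and microglia markers (bottom, CPM); each bar is a library, colored by genotype label. The Eph receptor sum of Cx43KO 1 stands at 88.8, its neuron markers at 7829 CPM and its microglia markers at 125 CPM, all above the other libraries.

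Cx43KO 1 held many of the high values. For 6 of the 24 guidance genes (25.0%) a single library gave more than 50% of the normalized counts, against 7.14% of all genes tested. Cx43KO 1 gave them for Epha4, Epha7 and Ephb3, Cx43KO 2 for Ephb2 and Efna5, and Cx43KO 3 for Ephb4. Without Cx43KO 1, 25 guidance genes could be tested, and 2 of them, Epha7 and Neo1, were higher at an unadjusted edgeR p below 0.05, where 5.17% of all genes were. In the libraries that remained, 7 guidance genes had both Cx43KO libraries above all Cx43FL libraries (13.8% of all genes did) and 3 had both below (12.3% of all genes). The 7 were Epha4, Epha5, Epha7, Efnb3, Slit1, Rgma and Rgmb, and the 3 were Efna2, Efna3 and Ephb3. The log2 fold changes of the 3, from -2.61 to -1.39, did not pass the unadjusted threshold, nor did those of the 7 other than Epha7.

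**Figure D5:**
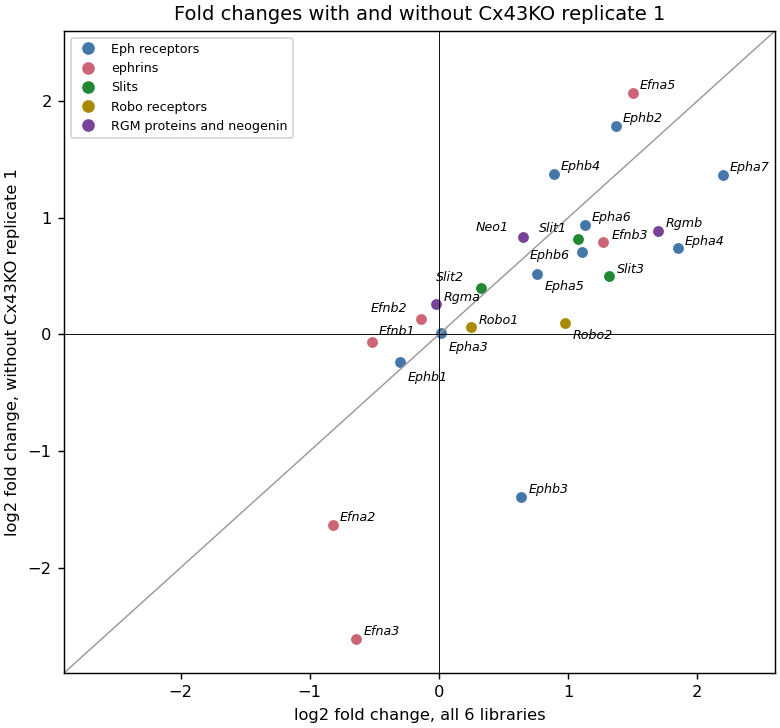
Log2 fold change of the guidance genes in all 6 libraries (horizontal axis) and without Cx43KO replicate 1 (vertical axis), each point a gene colored by family and the grey line marking equal values. Epha7, Epha4 and Rgmb keep a positive value below that line, and Ephb3 turns negative.

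The partners were 64 other genes listed for these pathways, ligands and proteases among them. Of these, 61 were tested. At an unadjusted edgeR p below 0.05, 5 were higher (8.2%) and 1 lower (1.64%), near the 5.66% and 2.67% of all genes, and the median log2 fold change was 0.088. By pathway this was 0 higher and 1 lower of 26 for Eph and ephrin signalling, 2 higher of 18 for Slit and Robo signalling and 3 higher of 17 for RGM and neogenin signalling. Unc5b, a netrin receptor that acts beside neogenin, had 32, 3 and 8 counts in Cx43FL, against 291, 530 and 101 in Cx43KO (log2 fold change 3.90 ± 1.11, edgeR adjusted p = 0.490). The original study lists it among its changed genes, chosen on these libraries. Bmpr2, the type II receptor for bone morphogenetic proteins, had 748, 925 and 911 counts in Cx43FL, against 2605, 1676 and 3907 in Cx43KO (1.04 ± 0.36, adjusted p = 0.540). Neither gene overlapped between genotypes. Yes1, a Src family kinase, was the gene below 0: it had 76.0, 62.1 and 57.2 CPM in Cx43FL and 33.2, 34.1 and 37.1 CPM in Cx43KO, again without overlap (-0.90 ± 0.33, edgeR adjusted p = 0.540). Dag1, the dystroglycan that binds Slits, had 573, 439 and 675 counts in Cx43FL, against 708, 1502 and 4386 in Cx43KO (1.11 ± 0.44, edgeR adjusted p = 0.556). Once scaled to library size, its libraries overlapped between genotypes. Sos1, an exchange factor recruited to Robo receptors, had 1460, 1266 and 1331 counts in Cx43FL, against 2482, 2866 and 4792 in Cx43KO (0.64 ± 0.28, edgeR adjusted p = 0.592), without overlap after scaling. None of the partners passed the adjusted threshold.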

How the data were processed

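Astrocyte polysomal mRNAs of 6 hippocampal libraries were amplified (Ovation, NuGEN) and sequenced by the authors, who filtered the reads, aligned them with STAR to mm10, and counted them with HTSeq 0.5.3. The deposited values are raw counts per Ensembl transcript, not normalized. Strand use is not given in the sources used here, and reads on shared exons count on each transcript. Of the transcripts, 73157 were matched to GENCODE vM21 (GRCm38) and 2309 were not. The transcript with the most counts over the 6 libraries stood for its gene. The main test was edgeR 4.0.16 (quasi-likelihood, TMM, filterByExpr, Benjamini-Hochberg adjustment over 13545 genes; a call also needed a mean above 50 counts), with DESeq2 1.42.0 as an alternative. In simulated data, with a log2 change of 3 set in 200 of 13270 genes, 77.5% were recovered by edgeR with 4 false calls and 90.5% by DESeq2 with 53. No guidance gene tested had a log2 fold change above 2.20, and no simulated library was set apart as Cx43KO 1 was. These shares therefore do not give the power of the test for the guidance genes. Values in each library are given for genes with an unadjusted p below 0.05, genes with separated libraries, the 6 with the highest Cx43FL level, and partners past the unadjusted p, of which 1 is not reported here. A few other low genes were named after their values were seen. The members and lists were chosen with earlier results of these data known. Alternatives were other normalizations, filters, transcript choices, a replicate block and each library left out. Counting the protein-coding transcript and separated libraries were chosen after seeing the data.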

Additional observations from a re-analysis of the deposited data

How the results depend on the processing

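With 15 alternatives, Epha7 kept an unadjusted p below 0.05 in all of them, with log2 fold changes from 1.37 to 2.53, and Epha4 in 14, losing it without Cx43KO replicate 1. The count of guidance genes past the unadjusted p stayed at 4, or 5 with no filter, under the other normalizations, filters, tools and transcript choices. Leaving out replicates gave 2 to 5, the fewest without Cx43FL replicate 2 or Cx43KO replicate 1, and all of them higher except Efna5, which was lower without Cx43KO replicate 2. Efnb3 lost it when any 1 Cx43FL library was left out (p from 0.0565 to 0.0659) or without Cx43KO replicate 1 (0.102), and Rgmb without Cx43FL replicate 2 (0.058) or Cx43KO replicate 1 (0.106); the cause was not tested. The number of guidance genes with separated libraries was 7 to 10 with a library left out, which fewer samples make easier, and 4 with transcripts added up. The median log2 fold change of guidance genes was 0.50 to 0.89 with a library left out and 0.44 under DESeq2 with a normal prior, which shrinks fold changes. Partners past the unadjusted p numbered 1 to 11 with a library left out. With a library left out, Rgma ranged from -0.25 to 0.26 and Ephb1 from -0.53 to 0.20. Rgma turned to 0.003 without Cx43FL replicate 1 and to 0.26 without Cx43KO replicate 1, and Ephb1 to 0.20 without Cx43FL replicate 2. Genes called over all genes, 1 by edgeR, were 0 with at least 10 counts in every library, 0 with transcripts added up, 137 by DESeq2 without a prior, 113 with it and 0 to 11 with a library left out, 11 without Cx43KO replicate 1.

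With the replicate number as a block, 2 genes were called and 4 guidance genes had an unadjusted edgeR p below 0.05, while Efna5 turned to -2.09, Ephb3 to -0.33, Ephb4 to -0.42 and Efnb2 to 0.58, none past that p. Over all genes, same-numbered libraries did not deviate together from their group means (correlations 0.0114, -0.00402 and -0.0547). With 3 libraries per genotype and Cx43KO 1 standing apart, this cannot exclude a pairing by litter or handling. The labels give only a shared number. Genes such as Efnb1, Efna5, Efnb2 and Epha3 varied so widely between libraries of a genotype that their sign depended on single libraries.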
